A study of Homo sapiens with 27 samples.

Results

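The genes described here are 40 interferon-stimulated effector genes, that is, genes that cells switch on in response to interferon and whose products act against viruses or tune the response. They were given as a list of symbols and taken as the rows of both count tables whose Ensembl identifier carries a listed symbol. All 40 were found among the 20453 genes of each table, and all 40 passed the filter on low counts in both assays. They are ISG15, UBE2L6, HERC5, HERC6 and USP18, MX1 and MX2, IFITM1, IFITM2, IFITM3, BST2, RSAD2 and PLSCR1, CMPK2, SAMHD1, ISG20, ZC3HAV1, PNPT1, DDX60 and DDX60L, PARP9, DTX3L, PARP10, PARP12 and PARP14, PML, SP100, SP110 and IFI16, IFI6, IFI27, XAF1, SHISA5, APOL1, APOL2 and APOL6, and IFI35, IFI44, IFI44L and EPSTI1. The measurements are RNA-seq, which reads mRNA abundance, and ribosome profiling, which sequences the stretches of mRNA that ribosomes cover (footprints). Both were made in THP-1, an established human monocytic leukaemia line, after exposure to PMA (10 ng/ml, 24 h), a phorbol ester that turns these cells into macrophage-like cells. All groups shared this PMA step and were then treated for 3 h with vehicle, with 100 ng/ml of bacterial lipopolysaccharide (LPS), or with the same LPS dose and 1 µM dexamethasone (LPS+Dex), and no group received dexamethasone alone. RNA-seq had 4 libraries per treatment and ribosome profiling 5, all from the 1 cell line.

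Type I interferon binds the receptor IFNAR1/IFNAR2, whose kinases JAK1 and TYK2 activate transcription factors such as STAT2. STAT2 acts with IRF9 at the interferon-stimulated response element (ISRE) in the promoters of such genes. In macrophages LPS, sensed by Toll-like receptor 4, leads through the adaptor TICAM1 and the kinase TBK1 to IRF3 and to secretion of interferon beta, which acts back on the cells. Dexamethasone is a synthetic glucocorticoid, a class of hormone known to lower inflammatory gene expression through the glucocorticoid receptor.

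The promoters of some members are shown to let the element be seen in its surroundings. RefSeq promoter windows of GRCh38.p14, running from 250 bases before to 50 after a transcription start, were matched by symbol for 32 of the 40 genes. The others are MX2, IFITM2, USP18, PARP10, PML, APOL1, APOL2 and APOL6. The ISRE core was searched on both strands as GAAA, any pair of bases (NN) and GAAA, which reads TTTC, NN and TTTC on the other strand. It was found in 21 of the 32 genes (65.6%), against 1195 of all 27305 genes with a window (4.38%). The gamma-activated site GAS, another element of interferon-responsive promoters, was searched as TTCNNNGAA, which reads the same on both strands and can overlap an ISRE. GAS was found in 12 of the 32 (37.5%), against 2560 of the 27305 (9.38%). Among members whose RNA log2 fold change with LPS was at least 2 the ISRE letters stood in 14 of 18 (77.8%), and among those below it in 7 of 14 (50%). These matches are descriptions of letters, and binding was not measured. The members were listed as interferon-stimulated genes, so their higher shares than over all genes go with that choice and are no independent result. The 80-base stretches below are those of the 6 members with the largest RNA rise among those with an ISRE match upstream of the start. Each was picked for holding a match, so that they share the element is set by the choice. The windows of CMPK2, XAF1 and ZC3HAV1, whose RNA rose by 5.02, 4.09 and 3.96 on the log2 scale, hold no ISRE match. The stretches are written 5′ to 3′ on the plus strand, which is the strand of all 6 genes, with the ISRE matches in capitals. HERC5 holds 3 matches, of which the first pair overlap, ISG15 holds an overlapping pair, and the other 4 stretches hold 1 each. The MX1 and RSAD2 stretches precede starts that lie inside the annotated span of the gene.
HERC5, chr4:88456984-88457063: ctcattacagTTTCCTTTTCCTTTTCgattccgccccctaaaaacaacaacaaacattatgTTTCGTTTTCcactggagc
MX1, chr21:41431819-41431898: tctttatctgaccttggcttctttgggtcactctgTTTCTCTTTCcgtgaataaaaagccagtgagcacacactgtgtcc
IFI44, chr1:78649709-78649788: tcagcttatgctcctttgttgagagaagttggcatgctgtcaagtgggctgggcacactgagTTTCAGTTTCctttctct
RSAD2, chr2:6877597-6877676: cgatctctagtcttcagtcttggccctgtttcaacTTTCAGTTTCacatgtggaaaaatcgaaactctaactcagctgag
ISG15, chr1:1013352-1013431: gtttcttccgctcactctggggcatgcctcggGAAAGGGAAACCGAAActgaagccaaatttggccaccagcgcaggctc
IFI44L, chr1:78620340-78620419: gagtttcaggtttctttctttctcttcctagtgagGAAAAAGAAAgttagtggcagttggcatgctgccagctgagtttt

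RNA libraries held 19 to 30.7 M counts and footprint libraries 11.5 to 26.1 M. Levels are given as CPM, counts divided by the scaled library size in units of 1e+06 counts, and are compared only within a gene because they are not divided by gene length. Gene coordinates are those of the RefSeq annotation of GRCh38.p14. Of 8 macrophage markers, 7 had a mean above 1 CPM in every RNA group, while MRC1 read 0.0415 to 0.787. The summed level of the 8 in RNA was 3400 to 4040 CPM with vehicle, 2140 to 2300 with LPS and 2260 to 2410 with LPS+Dex. Markers of plasmacytoid dendritic cells, a professional source of interferon, summed to at most 0.59 CPM in RNA, and erythroid markers were at 0 in every RNA library. The 4 T cell markers summed to 114 to 138 CPM with vehicle, 16 to 18.4 with LPS and 14.1 to 17.7 with LPS+Dex in RNA, nearly all of it TRAC, while CD3D, CD3E and CD3G reached at most 0.158. The 3 fibroblast markers summed to 6.11 to 9.05, 6.63 to 10.1 and 21.1 to 25.6 CPM in the same order, mostly COL1A1. B cell, NK cell and epithelial markers summed to at most 1.75, 6.71 and 0.511 CPM in RNA. The part of these markers in the results was not tested. These are bulk samples, in which fewer cells that carry a transcript and less of it per cell cannot be told apart. The labels do not say whether replicates are separate cultures, so a p-value here reflects no more than the spread among the libraries at hand.

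In each treatment 1 footprint library, numbered 4, stood apart, over all genes as well as for these 40. A chi-square per degree of freedom compared the counts of each pair of libraries of 1 treatment. Pairs with footprint library 4 read 147 to 168 with vehicle, 261 to 317 with LPS and 246 to 357 with LPS+Dex. All other footprint pairs read 3.91 to 23.1. In vehicle library 4 lay above all 4 other libraries for 36 of the 40 members and below them for 3, with a median ratio of 2.26 to the mean of the others. The ratio ran from 0.535 for ISG20 to 21.7 for RSAD2, and 23 members were at least 2-fold above, against 5.94% of all genes. In LPS the library numbered 4 was above the others for 14 members and below for 20 (median ratio 0.808), and in LPS+Dex above for 22 and below for 10 (median ratio 1.23). At least 2-fold above were 6 members in LPS (9.31% of all genes) and 9 in LPS+Dex (12.4%). At least 2-fold below were 5 and 3. Shares of all genes were not taken for the latter, or for the counts above or below all other libraries. The summed level of the 40 genes in vehicle footprints was 1848 to 1995 CPM in the other 4 libraries and 5260 in library 4. RNA-seq had no such vehicle library, with sums of 1925 to 1992, but its LPS+Dex library 4 summed to 5372 against 4331 to 4722 in the other 3. To show what rests on these 3 libraries, footprint values are given for all 15 libraries and for the 12 that remain without those numbered 4, called the reduced set. What sets them apart was not tested.

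**Figure D1:**
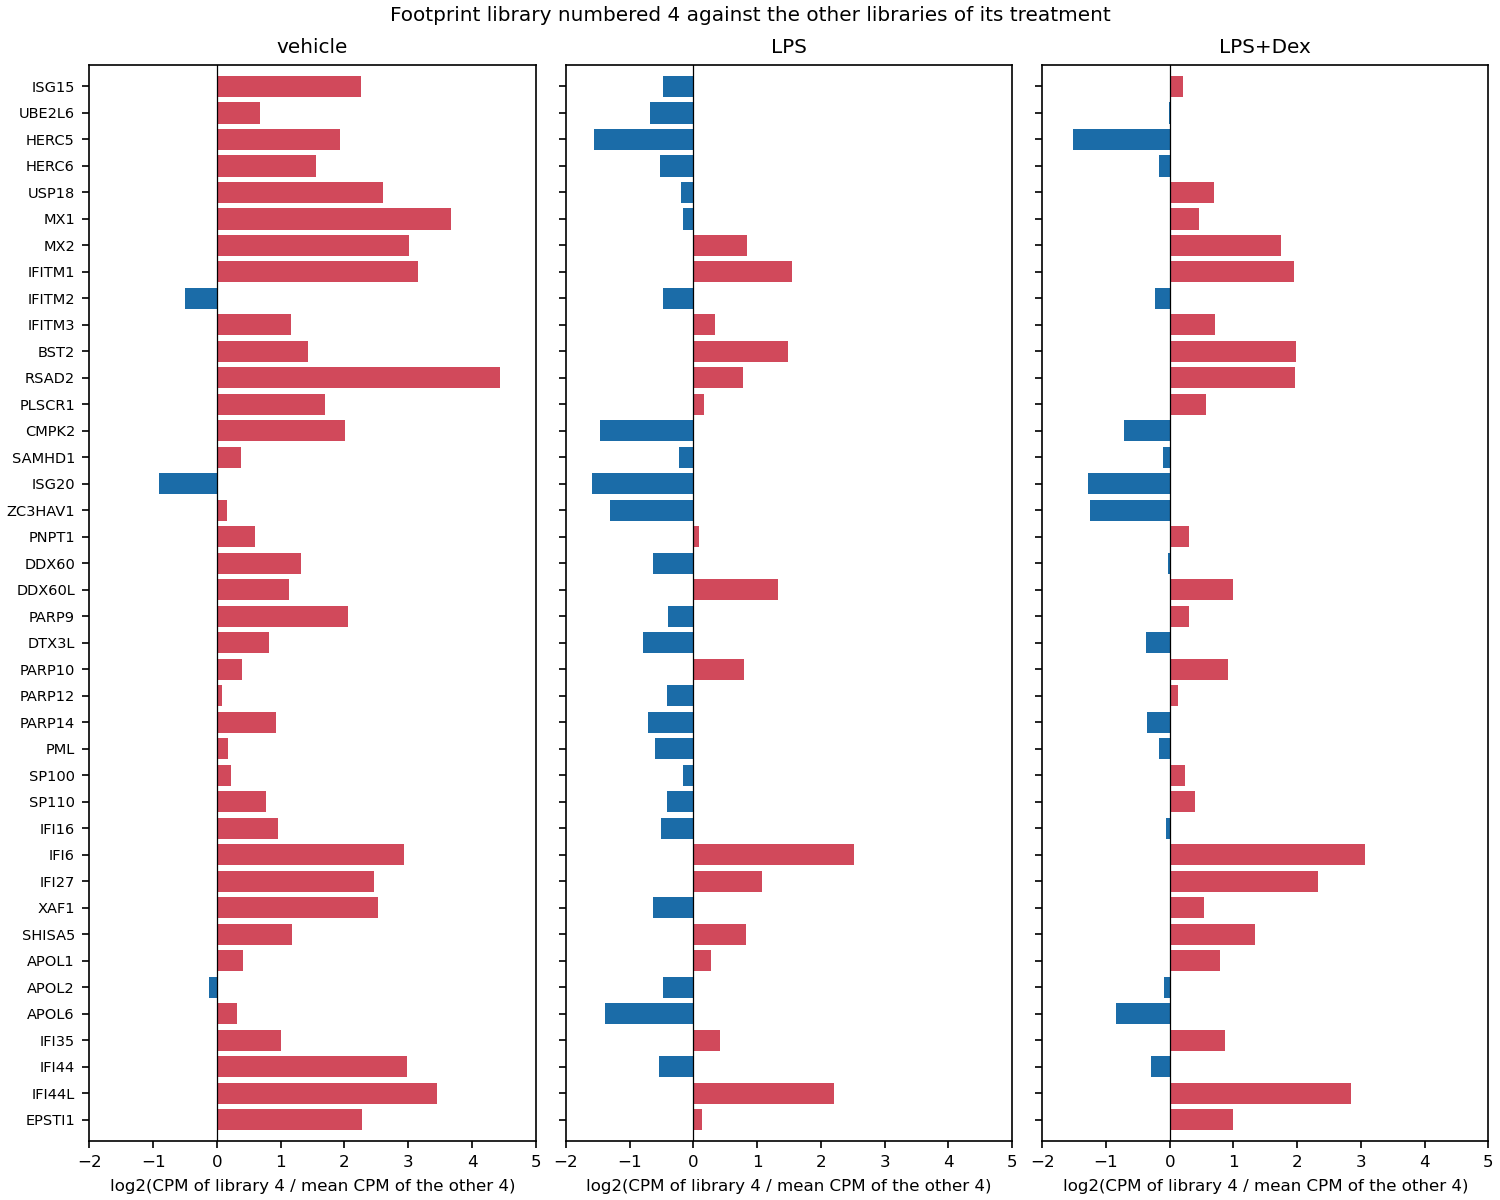
For each of the 40 genes, the bar gives the log2 ratio of the CPM of the footprint library numbered 4 to the mean CPM of the other 4 footprint libraries of the same treatment (vehicle, LPS and LPS+Dex, left to right). Red bars lie above 0 and blue bars below it. In vehicle 36 of 40 genes were above all the other libraries, while in LPS 14 were above and 20 below.

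LPS raised nearly the whole set. In RNA-seq 39 of the 40 genes rose and 1, IFITM2, fell, by edgeR's quasi-likelihood test at a Benjamini-Hochberg adjusted p under 0.05 over all genes. Of the 13327 genes tested 62.2% passed in that comparison, 28.6% upward and 33.6% downward. The median log2 fold change of the 40 was 2.29, against -0.05 over all genes tested. Of the 40, 33 rose at least 2-fold, and the share of all genes at that limit was not taken. Every LPS library lay above every vehicle library for 39 genes, against 24.4% of all genes tested, and the libraries overlapped for IFITM2. Summed over the 40 genes, RNA read 1925 to 1992 CPM with vehicle, 7792 to 8221 with LPS and 4331 to 5372 with LPS+Dex. Footprints rose for 31 of 40 with all libraries and IFITM2 fell (background 52.6% called, 25.4% upward, median log2 fold change 1.60), and the LPS libraries lay above all vehicle libraries for 24 (19.9% of all genes). With the replicate number as a block 36 rose and 2 fell (background 67.1%). In the reduced set 38 rose and 2, IFITM2 and PARP10, fell (background 67.5%, 31.5% upward, median 2.01), and all LPS libraries lay above vehicle for 36 (29% of all genes).

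Dexamethasone lowered most of these genes, and in neither assay did it raise any of the 40 past the test. In RNA-seq 33 of the 40 were lower with LPS+Dex than with LPS, where 30.9% of all genes passed and 15.4% were lower. The median was -0.76, against 0.01 over all genes. At least 2-fold lower were 12 of the 40, and the share of all genes at that limit was not taken. All LPS+Dex libraries lay below all LPS libraries for 31 genes, against 16.4% of all genes tested. The 7 that did not pass were IFITM2, IFITM3, BST2, PARP10, IFI6, SHISA5 and APOL2. In footprints 10 of 40 fell with all libraries, where 17.1% of all genes passed, 9.08% higher and 7.99% lower. All LPS+Dex libraries were below all LPS libraries for 13 of the 40 (6.49% of all genes), and for 33 in the reduced set (14.9%). The 10 that passed were HERC5, HERC6, PNPT1, DDX60, DTX3L, PARP14, PML, SP100, IFI16 and APOL6. That count depended on single libraries. It was 23 without vehicle library 4 and 6 without any 1 of LPS libraries 1, 2, 3 and 5 or LPS+Dex libraries 1 and 2. With the replicate block 29 fell (background 30.9%, 14.8% lower), and in the reduced set 35 fell (background 31.5%, 15.3% lower). The median there was -0.73, and IFITM1, IFITM2, PARP10, SHISA5 and APOL2 did not pass.

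**Figure D2:**
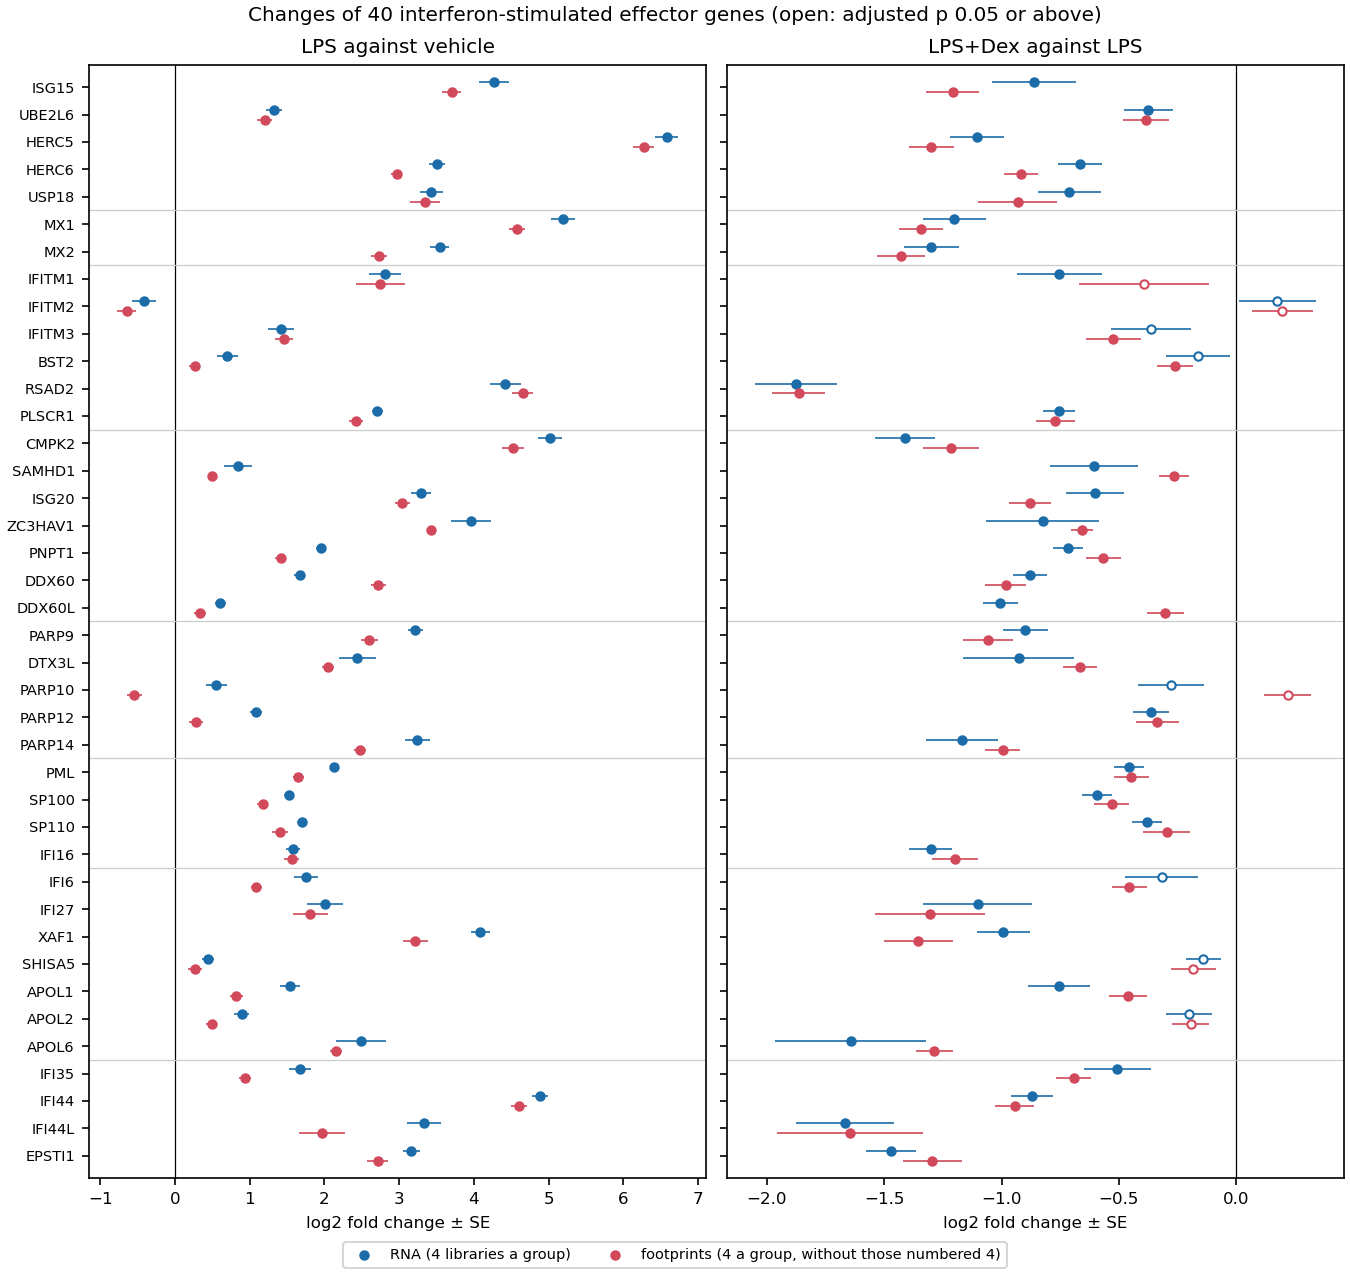
Log2 fold change ± SE of each of the 40 genes for LPS against vehicle (left) and LPS+Dex against LPS (right), blue for RNA with 4 libraries a group and red for footprints with 4 a group after leaving out those numbered 4. Filled points passed an adjusted p under 0.05, and grey lines divide the role groups. On the left all but IFITM2 and the PARP10 footprints lie above 0, and on the right no filled point lies above 0.

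All 5 genes of the ISG15 system rose with LPS in both assays, and all 5 fell with LPS+Dex in RNA. ISG15 is a ubiquitin-like protein that is attached to other proteins, with UBE2L6 as the conjugating enzyme and HERC5 as the main human ligase. HERC6 is a related HECT-domain protein, and USP18 removes ISG15 and restrains the interferon receptor. HERC5 (ENSG00000138646, chromosome 4, 88457119 to 88506163) had the largest RNA rise of the 40. It read 1.68, 1.69, 1.88 and 2.93 CPM with vehicle, 200, 197, 187 and 205 with LPS and 85.7, 84.9, 92.7 and 104 with LPS+Dex in RNA-seq. The 3 groups did not overlap, and LPS+Dex stood between the other two. The RNA rose by 6.58 ± 0.15 (log2 fold change ± SE, 95.6-fold, adjusted p = 3.37e-13) and changed by -1.11 ± 0.12 with dexamethasone (adjusted p = 4.53e-06). HERC5 footprints, listed by library number from 1 to 5 here and below, read 1.41, 2.05, 0.863, 5.57 and 1.49 CPM with vehicle, 114, 115, 109, 38.3 and 113 with LPS and 38.8, 45.9, 45.7, 16 and 52.3 with LPS+Dex. Library 4 was the highest of the vehicle libraries and the lowest of both LPS groups. The footprint rise was 5.51 ± 0.51 with all libraries (adjusted p = 4.15e-07) and 6.27 ± 0.14 in the reduced set (adjusted p = 1.24e-20). Its fall with dexamethasone was -1.30 ± 0.42 with all libraries (adjusted p = 0.0432) and -1.30 ± 0.10 in the reduced set (adjusted p = 1.7e-10). With all libraries that call was lost on leaving out 12 of the 15 libraries one at a time, with adjusted p from 0.0104 to 0.0889.

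UBE2L6 (ENSG00000156587, chromosome 11, 57551662 to 57567935) had the smallest rise of this group. Its RNA read 16.7, 14, 14.7 and 15.6 CPM with vehicle, 42.1, 39.4, 34.1 and 37.4 with LPS and 25.2, 27.2, 31.4 and 34.2 with LPS+Dex. The LPS libraries lay above all vehicle libraries, and the highest LPS+Dex library slightly passed the lowest LPS library. The change was 1.33 ± 0.11 with LPS (adjusted p = 1.12e-07) and -0.38 ± 0.11 with dexamethasone (adjusted p = 0.0142). The second call was lost without RNA LPS library 1 or RNA LPS+Dex library 2, with adjusted p from 0.00614 to 0.0519 over the 12 fits that leave out 1 library. UBE2L6 footprints read 22, 20.2, 26.2, 37.6 and 25.6 CPM with vehicle, 60.1, 54.4, 50.6, 34 and 52.1 with LPS and 36.1, 37.1, 48.1, 41.4 and 45.4 with LPS+Dex, and library 4 stood highest in vehicle and lowest in LPS. They rose by 0.94 ± 0.17 with all libraries (adjusted p = 0.000292) and 1.20 ± 0.10 in the reduced set, and fell with dexamethasone in the reduced set (-0.39 ± 0.10, adjusted p = 0.00359). ISG15 itself went from 27.5 ± 5.46 to 529.5 ± 92.4 CPM with LPS in RNA (mean ± SD, n = 4) and to 291 ± 74 with LPS+Dex. Its RNA change was 4.27 ± 0.20 with LPS and -0.86 ± 0.18 with dexamethasone (adjusted p = 0.002). ISG15 footprints in the reduced set went from 35.6 ± 3.61 to 467 ± 54.8 and 202 ± 44.3 CPM, and library 4 with vehicle read 171. HERC6 and USP18 rose by 3.51 ± 0.10 and 3.43 ± 0.16 in RNA and changed by -0.67 ± 0.09 and -0.71 ± 0.13 with dexamethasone. USP18 has a near-identical copy elsewhere in the genome, so its counts are uncertain.

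Both dynamin-like GTPases, MX1 and MX2, rose with LPS and fell with dexamethasone in RNA. These proteins assemble on viral components and block infection early after entry. MX1 (ENSG00000157601, chromosome 21, 41420558 to 41459214) read 11.5, 8.26, 11.5 and 13.4 CPM with vehicle, 443, 410, 396 and 381 with LPS and 147, 158, 182 and 222 with LPS+Dex in RNA-seq. No library of one treatment overlapped those of another. The change was 5.19 ± 0.16 with LPS (36.5-fold, adjusted p = 6.22e-12) and -1.20 ± 0.14 with dexamethasone (adjusted p = 1.02e-05). MX1 footprints read 14.4, 12, 12.8, 172 and 14.9 CPM with vehicle, 371, 326, 314, 291 and 287 with LPS and 111, 111, 139, 176 and 151 with LPS+Dex. The vehicle library numbered 4 was about as high as the highest LPS+Dex libraries, and in LPS library 4 lay within the others. The footprint rise was 2.82 ± 0.68 with all libraries (adjusted p = 0.00269) and 4.58 ± 0.11 in the reduced set (adjusted p = 1.09e-19). The dexamethasone change of -1.21 ± 0.64 did not pass with all libraries (adjusted p = 0.247, with the block -1.31 ± 0.43, adjusted p = 0.0283), but a change of -1.34 ± 0.10 did in the reduced set (adjusted p = 8.77e-11). MX2, 11164 bases away on chromosome 21, went from 21.6 ± 1.85 to 252 ± 26.9 and 102 ± 18.3 CPM in RNA, with changes of 3.54 ± 0.13 and -1.30 ± 0.12.

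The genes of membranes, viral entry and budding were mixed. In RNA 5 of the 6 rose with LPS, and 3 (IFITM1, RSAD2 and PLSCR1) fell with dexamethasone. RSAD2 encodes viperin, a radical SAM enzyme that makes a chain-terminating nucleotide. The IFITM proteins hinder fusion of viruses with membranes, BST2 (tetherin) holds budding virus at the cell surface, and PLSCR1 is a phospholipid scramblase. RSAD2 (ENSG00000134321, chromosome 2, 6865885 to 6898239) read 1.17, 1.03, 1.77 and 1.96 CPM with vehicle, 37.7, 29.8, 32.1 and 30.4 with LPS and 7.81, 6.74, 10.1 and 10.8 with LPS+Dex in RNA. The groups were far apart, and LPS+Dex stayed above vehicle. Its RNA rose by 4.42 ± 0.20 (21.4-fold, adjusted p = 3.27e-10) and fell with dexamethasone with a log2 fold change of -1.88 ± 0.18, the largest RNA fall of the 40 (adjusted p = 1.56e-06). RSAD2 footprints read 1.77, 2.26, 2.66, 47.6 and 2.06 CPM with vehicle, 54.7, 62.2, 54.5, 95.1 and 49.9 with LPS and 12.6, 13.7, 15.3, 59.5 and 19.2 with LPS+Dex. Library 4 stood highest in all 3 groups, and in vehicle it came close to the LPS libraries. Footprints rose with LPS by 2.55 ± 0.87 with all libraries and 4.65 ± 0.14 in the reduced set. With dexamethasone the change was -1.40 ± 0.83 with all libraries (adjusted p = 0.309, with the block -1.76 ± 0.38, adjusted p = 0.00197) and -1.87 ± 0.11 in the reduced set (adjusted p = 5.99e-12).

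IFITM2 (ENSG00000185201, chromosome 11, 307816 to 309395) was the one member that fell with LPS in RNA. It read 15.8, 18.4, 11.1 and 10.9 CPM with vehicle, 9.83, 12.3, 10.2 and 10 with LPS and 11.6, 12.2, 10.5 and 13.3 with LPS+Dex, so that the groups overlapped. The RNA change was -0.41 ± 0.16 (adjusted p = 0.0402). That call was lost with DESeq2's size factors in edgeR (adjusted p = 0.0647), with DESeq2's own test (adjusted p = 0.0548) and without any 1 of 7 of the 12 libraries (vehicle 1 and 2, LPS 1, 3 and 4, LPS+Dex 1 and 2), where the adjusted p over all such fits ran from 0.0127 to 0.144. IFITM2 footprints read 16.1, 13.4, 15.6, 10.3 and 13.1 CPM with vehicle, 10.3, 8.65, 10.6, 6.7 and 7.8 with LPS and 10.4, 8.46, 12, 9.19 and 12.2 with LPS+Dex, and library 4 was the lowest in vehicle and in LPS. They fell with LPS with a log2 fold change of -0.64 ± 0.15 with all libraries (adjusted p = 0.0028) and -0.65 ± 0.12 in the reduced set. IFITM3 and IFITM1 rose instead, by 1.42 ± 0.18 and 2.81 ± 0.21 in RNA, and IFITM1 stayed under 6 CPM in every RNA library. The 3 IFITM genes are close paralogs on chromosome 11, and reads shared between them could have been counted for the wrong one.

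BST2 (ENSG00000130303, chromosome 19, 17402939 to 17405630) read 86.4, 75.1, 60.9 and 72.8 CPM with vehicle, 129, 138, 101 and 112 with LPS and 92.9, 104, 96.4 and 136 with LPS+Dex in RNA. The LPS libraries lay above the vehicle libraries and overlapped those with LPS+Dex. It rose by 0.70 ± 0.14 (adjusted p = 0.00053), and its change of -0.16 ± 0.14 with dexamethasone did not pass (adjusted p = 0.393). BST2 footprints read 101, 83, 99.9, 264 and 108 CPM with vehicle, 126, 124, 112, 333 and 111 with LPS and 97, 91.5, 103, 390 and 103 with LPS+Dex, with library 4 at 2.69, 2.81 and 3.96 times the mean of the others. With all libraries the LPS change of 0.30 ± 0.47 did not pass (adjusted p = 0.623, with the block 0.29 ± 0.09, adjusted p = 0.0113). In the reduced set a rise of 0.27 ± 0.07 (adjusted p = 0.00335) and a dexamethasone change of -0.26 ± 0.08 (adjusted p = 0.00939) did. PLSCR1 rose by 2.71 ± 0.07 in RNA and changed by -0.76 ± 0.07 with dexamethasone, from 26 ± 1.48 CPM with vehicle to 169.6 ± 4.93 and 101 ± 6.88.

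All 7 genes that act on nucleotide pools, RNA or DNA rose with LPS in RNA, and all 7 fell with dexamethasone. CMPK2 is a mitochondrial nucleoside monophosphate kinase, SAMHD1 degrades deoxynucleotides, and ISG20 is an exonuclease. ZC3HAV1 (ZAP) binds CpG-rich viral RNA, PNPT1 is the mitochondrial polynucleotide phosphorylase, and DDX60 and DDX60L are helicase-like proteins. CMPK2 (ENSG00000134326, chromosome 2, 6840553 to 6866635) read 2.18, 1.9, 2.55 and 3.1 CPM with vehicle, 83.6, 70, 87.3 and 77.9 with LPS and 29.3, 25.8, 36.6 and 28.3 with LPS+Dex in RNA. The groups were apart, with LPS+Dex between vehicle and LPS. Its changes were 5.02 ± 0.16 with LPS (32.4-fold, adjusted p = 6.12e-12) and -1.41 ± 0.13 with dexamethasone (adjusted p = 1.3e-06). CMPK2 footprints read 2.5, 2.14, 2.81, 10.4 and 2.92 CPM with vehicle, 62.9, 60, 53.2, 21.9 and 64.2 with LPS and 20.2, 22.2, 27.1, 15.7 and 34.2 with LPS+Dex, and library 4 was highest in vehicle and lowest in the other groups. They rose by 3.72 ± 0.44 with all libraries and 4.52 ± 0.15 in the reduced set. The dexamethasone change was -1.14 ± 0.39 with all libraries (adjusted p = 0.0621, with the block -1.15 ± 0.33, adjusted p = 0.0125) and -1.22 ± 0.12 in the reduced set (adjusted p = 2.1e-08). CMPK2 and RSAD2 overlap by 751 bases on opposite strands, and without a stated strand setting reads there cannot be assigned with certainty.

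PNPT1 (ENSG00000138035, chromosome 2, 55634061 to 55693844) read 84, 87.1, 79.2 and 83.3 CPM with vehicle, 343, 328, 302 and 322 with LPS and 190, 198, 187 and 214 with LPS+Dex in RNA. Its groups were tight and did not overlap. It rose by 1.96 ± 0.07 (adjusted p = 1.2e-11) and changed by -0.72 ± 0.06 with dexamethasone. PNPT1 footprints read 65.7, 80.3, 70.2, 107 and 68.2 CPM with vehicle, 191, 201, 208, 202 and 163 with LPS and 126, 127, 127, 158 and 134 with LPS+Dex and also did not overlap between vehicle and LPS. They rose by less than the RNA, 1.30 ± 0.13 with all libraries (adjusted p = 7.93e-07), and fell with dexamethasone with a log2 fold change of -0.52 ± 0.13 (adjusted p = 0.00896). DDX60L (ENSG00000181381, chromosome 4, 168356735 to 168480492) had the smallest RNA rise here, reading 211, 248, 259 and 238 CPM with vehicle, 361, 351, 367 and 380 with LPS and 183, 168, 178 and 197 with LPS+Dex. All LPS libraries were above vehicle, and all LPS+Dex libraries were below vehicle. Its RNA changes were 0.61 ± 0.07 with LPS (adjusted p = 5.69e-06) and -1.01 ± 0.07 with dexamethasone (adjusted p = 1.48e-07). DDX60L footprints read 108, 136, 127, 275 and 129 CPM with vehicle, 142, 162, 177, 397 and 152 with LPS and 125, 134, 115, 253 and 136 with LPS+Dex, with library 4 at 2.2, 2.51 and 1.98 times the mean of the rest. In the reduced set they changed by 0.33 ± 0.08 with LPS and -0.30 ± 0.08 with dexamethasone. With all libraries neither passed (adjusted p = 0.318 and adjusted p = 0.462), and with the block the changes were 0.38 ± 0.08 (adjusted p = 0.000287) and -0.38 ± 0.08 (adjusted p = 0.000943). DDX60, a close paralog of DDX60L 30755 bases away, rose in RNA from 52.9 ± 4.25 to 169 ± 7.09 CPM and was at 91.6 ± 6 with LPS+Dex. SAMHD1, ISG20 and ZC3HAV1 changed by 0.84 ± 0.19, 3.29 ± 0.14 and 3.96 ± 0.27 with LPS and by -0.61 ± 0.19, -0.60 ± 0.13 and -0.82 ± 0.24 with dexamethasone. In RNA the vehicle libraries 1 and 2 of ZC3HAV1 read 32.2 and 21.3 CPM, below libraries 3 and 4 at 59.6 and 52.3, and SAMHD1, DTX3L, PARP14 and APOL6 were likewise lower in the former pair.

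All 5 genes of ADP-ribosylation rose with LPS in RNA, and 4 fell with dexamethasone. PARP9, PARP10, PARP12 and PARP14 belong to the ADP-ribosyltransferase family, and DTX3L is a ubiquitin ligase that pairs with PARP9. PARP14 (ENSG00000173193, chromosome 3, 122680839 to 122730840) read 50.7, 51.1, 87.6 and 79 CPM with vehicle, 645, 553, 654 and 690 with LPS and 278, 270, 303 and 280 with LPS+Dex in RNA. The groups did not overlap. Its changes were 3.24 ± 0.17 with LPS (9.46-fold, adjusted p = 9.09e-10) and -1.17 ± 0.15 with dexamethasone (adjusted p = 4.23e-05). PARP14 footprints read 84.9, 98.9, 98, 182 and 101 CPM with vehicle, 540, 554, 538, 326 and 508 with LPS and 250, 252, 250, 209 and 318 with LPS+Dex, and library 4 was again highest in vehicle and lowest in the other 2 groups. They rose by 2.13 ± 0.21 with all libraries and 2.48 ± 0.08 in the reduced set. The fall with dexamethasone passed with all libraries, at -0.95 ± 0.20 (adjusted p = 0.00369), and in the reduced set (adjusted p = 2.68e-10).

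PARP10 (ENSG00000178685) and PARP12 (ENSG00000059378, chromosome 7, 140023749 to 140062951) were the members of this group whose footprints did not pass with LPS over all libraries. PARP10 RNA read 409, 442, 318 and 365 CPM with vehicle, 596, 675, 482 and 494 with LPS and 378, 451, 453 and 572 with LPS+Dex. The LPS libraries lay above vehicle, and LPS+Dex overlapped both. Its RNA rose by 0.55 ± 0.14 (adjusted p = 0.00353), and the change of -0.28 ± 0.14 with dexamethasone did not pass (adjusted p = 0.15). PARP10 footprints read 43, 34.5, 43, 52.5 and 39.3 CPM with vehicle, 29.8, 28.9, 22.5, 48 and 29 with LPS and 30.1, 35.4, 34.3, 60.6 and 28.2 with LPS+Dex. Apart from library 4 the LPS libraries were all below the vehicle libraries. That change was -0.43 ± 0.22 with all libraries (adjusted p = 0.117), -0.46 ± 0.11 with the replicate block (adjusted p = 0.00132) and -0.54 ± 0.10 in the reduced set (adjusted p = 3.61e-05), opposite in sign to the RNA. PARP10 overlaps GRINA and SPATC1 in the annotation. PARP12 RNA read 54.9, 60.2, 59.3 and 63.5 CPM with vehicle, 133, 133, 116 and 122 with LPS and 92, 93.6, 96.6 and 110 with LPS+Dex, without overlap between groups. It rose by 1.08 ± 0.08 (adjusted p = 3.01e-08) and changed by -0.36 ± 0.08 with dexamethasone (adjusted p = 0.0022). PARP12 footprints read 38.9, 35.2, 32, 37.4 and 35.6 CPM with vehicle, 47.1, 47.3, 39.8, 32.5 and 38.4 with LPS and 31.5, 31.4, 34, 37.1 and 39.5 with LPS+Dex, with groups that overlapped. Their LPS change was 0.20 ± 0.10 with all libraries (adjusted p = 0.127) and 0.28 ± 0.09 in the reduced set (adjusted p = 0.0092). PARP9 and DTX3L, which overlap by 447 bases on opposite strands, rose by 3.22 ± 0.11 and 2.44 ± 0.25 in RNA and changed by -0.90 ± 0.10 and -0.93 ± 0.24 with dexamethasone.

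**Figure D3:**
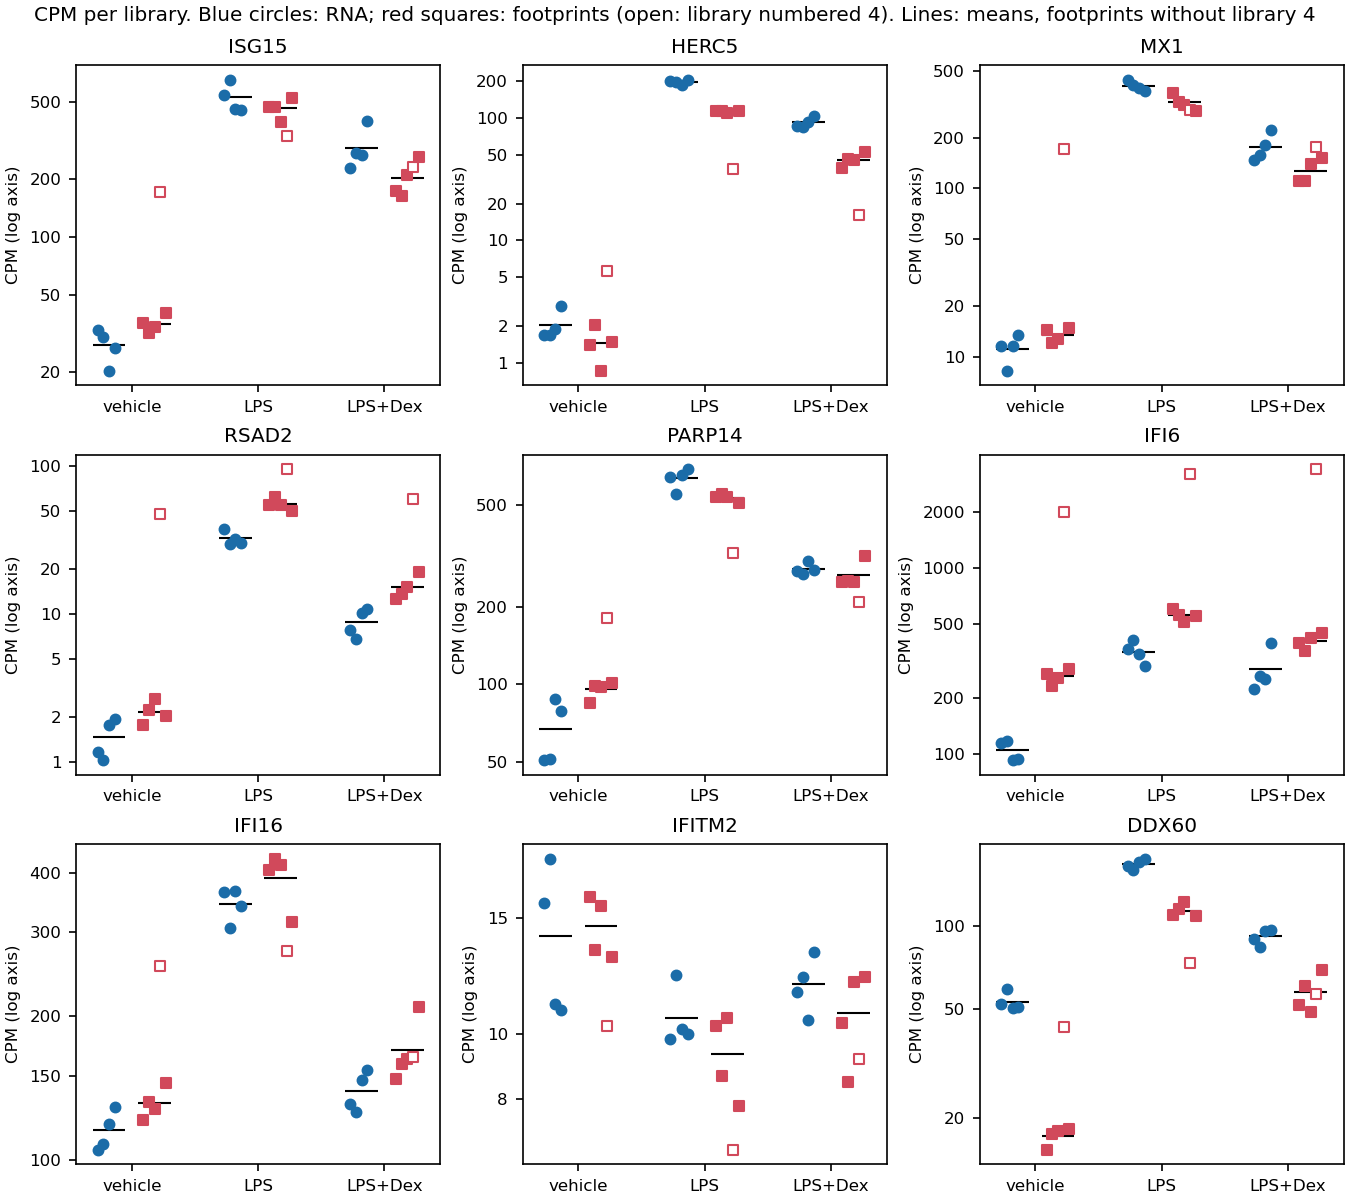
CPM of every library (log axis) for 9 members with vehicle, LPS and LPS+Dex. Blue circles are RNA libraries, red squares footprint libraries, open squares the footprint libraries numbered 4, and black lines means, taken without library 4 for footprints. HERC5 RNA went from at most 2.93 CPM with vehicle to at least 187 with LPS, while the IFITM2 groups overlap and the open squares of IFI6 lie between 2000 and 3380.

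All 4 genes of nuclear bodies and nuclear DNA sensing rose with LPS and fell with dexamethasone in RNA. PML and SP100 are core proteins of PML nuclear bodies, SP110 is a relative of SP100, and IFI16 senses DNA. PML (ENSG00000140464, chromosome 15, 73994716 to 74047827) read 77.7, 79.5, 81.5 and 77.8 CPM with vehicle, 341, 354, 364 and 331 with LPS and 231, 251, 251 and 278 with LPS+Dex in RNA. The groups did not overlap and were tight within each. Its changes were 2.13 ± 0.07 with LPS (adjusted p = 5.47e-12) and -0.46 ± 0.06 with dexamethasone (adjusted p = 7.02e-05). PML footprints read 108, 85.3, 97.7, 109 and 96.7 CPM with vehicle, 340, 310, 277, 201 and 296 with LPS and 213, 212, 248, 199 and 222 with LPS+Dex, and library 4 was the lowest of the LPS and LPS+Dex groups. They rose by 1.52 ± 0.12 with all libraries (adjusted p = 9.37e-08). Their dexamethasone change of -0.38 ± 0.12 (adjusted p = 0.0414) lost its call without any 1 of 11 of the 15 libraries (adjusted p from 0.00162 to 0.112) and without the filter on low counts (adjusted p = 0.0631). In the reduced set it was -0.45 ± 0.07 (adjusted p = 4.2e-05).

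SP100 (ENSG00000067066, chromosome 2, 230416201 to 230545606) had the smallest RNA rise of that group, reading 91.1, 92.7, 106 and 95.6 CPM with vehicle, 285, 286, 286 and 257 with LPS and 181, 187, 182 and 188 with LPS+Dex. The treatments were again separate. It changed by 1.53 ± 0.07 with LPS (adjusted p = 1.4e-10) and -0.59 ± 0.06 with dexamethasone (adjusted p = 6.31e-06). SP100 footprints read 70.3, 74.8, 68.9, 84.6 and 74.1 CPM with vehicle, 164, 173, 175, 145 and 140 with LPS and 107, 106, 112, 133 and 126 with LPS+Dex, and here library 4 stayed near the others. They rose by 1.10 ± 0.09 with all libraries (adjusted p = 1.27e-07) and changed by -0.45 ± 0.09 with dexamethasone (adjusted p = 0.00238). IFI16 went from 115 ± 11.2 to 344 ± 28 CPM with LPS and was at 139.5 ± 13.2 with LPS+Dex in RNA. Its dexamethasone change, -1.30 ± 0.09 (adjusted p = 9.82e-08), was the largest of the group. IFI16 overlaps AIM2, and SP110 overlaps SP140, in the annotation. SP110 rose by 1.70 ± 0.07 and changed by -0.38 ± 0.06 with dexamethasone.

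All 7 genes of mitochondria, apoptosis and the apolipoprotein L family rose with LPS in RNA, and 4 (IFI27, XAF1, APOL1 and APOL6) fell with dexamethasone. IFI6 and IFI27 are small hydrophobic proteins of intracellular membranes, XAF1 binds the apoptosis inhibitor XIAP, and SHISA5 is linked to apoptosis at the endoplasmic reticulum. APOL1 is the trypanosome lytic factor, and APOL2 and APOL6 are intracellular relatives of it. XAF1 (ENSG00000132530, chromosome 17, 6755447 to 6775647) read 5.24, 5.12, 4.93 and 5.89 CPM with vehicle, 93, 105, 79.2 and 83.6 with LPS and 38.3, 45.3, 42.7 and 54.8 with LPS+Dex in RNA. The groups did not overlap. Its changes were 4.09 ± 0.13 with LPS (17-fold, adjusted p = 8.23e-12) and -0.99 ± 0.11 with dexamethasone (adjusted p = 1.19e-05). XAF1 footprints read 3.66, 3.1, 3.64, 20 and 3.45 CPM with vehicle, 39.7, 35.7, 33.7, 20.9 and 20.9 with LPS and 11.2, 11.4, 15.1, 18.7 and 13.4 with LPS+Dex, and vehicle library 4 nearly reached the lowest LPS libraries. They rose by 2.21 ± 0.47 with all libraries and 3.22 ± 0.16 in the reduced set. The dexamethasone change of -1.12 ± 0.45 did not pass with all libraries (adjusted p = 0.112, with the block -1.19 ± 0.34, adjusted p = 0.0119), and the fall of -1.36 ± 0.15 in the reduced set did (adjusted p = 9.1e-08).

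IFI6 (ENSG00000126709, chromosome 1, 27666064 to 27672192) read 115, 117, 92.6 and 94.3 CPM with vehicle, 365, 408, 346 and 298 with LPS and 224, 263, 253 and 396 with LPS+Dex in RNA. LPS libraries lay above vehicle, and the LPS+Dex library numbered 4 fell within the LPS range. It rose by 1.76 ± 0.16 (adjusted p = 4.26e-07), and its dexamethasone change of -0.32 ± 0.16 did not pass (adjusted p = 0.142). That change passed in 1 of the 12 fits that leave out 1 library (adjusted p from 0.00506 to 0.32). The most negative value over these fits was -0.52, without RNA LPS+Dex library 4. IFI6 footprints read 269, 231, 256, 2000 and 287 CPM with vehicle, 603, 559, 512, 3180 and 551 with LPS and 392, 357, 420, 3380 and 448 with LPS+Dex, with library 4 at 7.65, 5.73 and 8.37 times the mean of the others. With all libraries the LPS change of 0.83 ± 0.85 did not pass (adjusted p = 0.435, with the block 1.02 ± 0.09, adjusted p = 2.75e-08), while in the reduced set IFI6 rose by 1.09 ± 0.07 (adjusted p = 1.52e-11) and changed by -0.46 ± 0.07 with dexamethasone (adjusted p = 3.12e-05). IFI27 (ENSG00000165949, chromosome 14, 94105894 to 94116690) was low, at 0.712, 0.784, 0.58 and 0.552 CPM with vehicle, 2.26, 4.11, 2.02 and 2.24 with LPS and 1.21, 1.2, 1.14 and 1.36 with LPS+Dex in RNA. The LPS libraries were above all others, and LPS library 2 was the highest. It changed by 2.01 ± 0.24 (adjusted p = 6.39e-06) and -1.10 ± 0.23 (adjusted p = 0.00233). IFI27 footprints read 0.869, 0.806, 0.75, 4.25 and 0.666 CPM with vehicle, 3.18, 1.89, 3.17, 5.72 and 2.63 with LPS and 1.12, 1.03, 1.32, 5.59 and 0.981 with LPS+Dex, with library 4 the highest in each group. The LPS difference was 2.4-fold with all libraries (adjusted p = 0.0937, with the block a log2 fold change of 1.49 ± 0.24, adjusted p = 4.41e-05) and a log2 fold change of 1.81 ± 0.23 in the reduced set (adjusted p = 5.22e-07).

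SHISA5 (ENSG00000164054, chromosome 3, 48467876 to 48504810) had the smallest rise of the 7. Its RNA read 39.2, 33.2, 36.1 and 33.2 CPM with vehicle, 47, 51.5, 48.6 and 45.6 with LPS and 42, 46, 45.1 and 41.7 with LPS+Dex. Vehicle stood below the other groups, which overlapped each other. The LPS change was 0.44 ± 0.08 (adjusted p = 0.000168), and the change of -0.14 ± 0.08 with dexamethasone did not pass (adjusted p = 0.181). SHISA5 footprints read 20.6, 15.5, 18.5, 40.6 and 16.9 CPM with vehicle, 22.6, 23.7, 18.8, 38.4 and 21.8 with LPS and 18.4, 18.8, 20.8, 48.3 and 18.5 with LPS+Dex, with library 4 at 2.27, 1.77 and 2.53 times the mean of the rest. Their LPS change of 0.16 ± 0.32 did not pass with all libraries (adjusted p = 0.695), and the rise of 0.27 ± 0.09 in the reduced set did (adjusted p = 0.014). The apolipoprotein L genes APOL1, APOL2 and APOL6 rose in RNA by 1.54 ± 0.14, 0.89 ± 0.10 and 2.49 ± 0.33. With dexamethasone APOL1 and APOL6 changed by -0.76 ± 0.13 and -1.64 ± 0.32, and the change of -0.20 ± 0.10 in APOL2 did not pass (adjusted p = 0.143). These 3 genes are paralogs on chromosome 22, where reads may be shared.

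The 4 remaining genes, IFI35, IFI44, IFI44L and EPSTI1, rose with LPS and fell with dexamethasone in RNA. IFI35 forms complexes with the protein NMI, IFI44 and IFI44L are related cytoplasmic proteins, and EPSTI1 was first described in epithelial-stromal contact. IFI44 (ENSG00000137965, chromosome 1, 78649789 to 78664078) read 7.67, 6.28, 7.16 and 6.72 CPM with vehicle, 211, 217, 194 and 201 with LPS and 106, 102, 107 and 135 with LPS+Dex in RNA. The groups were far apart. Its changes were 4.89 ± 0.11 with LPS (29.6-fold, adjusted p = 1.97e-13) and -0.87 ± 0.09 with dexamethasone (adjusted p = 4.26e-06). IFI44 footprints read 3.19, 3.22, 2.89, 25.1 and 3.42 CPM with vehicle, 76.6, 80.6, 83.6, 53.4 and 70.7 with LPS and 38.7, 36.7, 38.3, 32.9 and 47.7 with LPS+Dex, with library 4 highest in vehicle and lowest elsewhere. They rose by 3.33 ± 0.55 with all libraries and 4.60 ± 0.11 in the reduced set. The dexamethasone change was -0.91 ± 0.49 (adjusted p = 0.259) and -0.94 ± 0.08 (adjusted p = 3.42e-09) in the same order.

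IFI44L, 3643 bases upstream of IFI44 on chromosome 1, read 0.67, 0.784, 0.986 and 1.62 CPM with vehicle, 12.9, 10.1, 9.12 and 9.53 with LPS and 2.62, 2.87, 3.63 and 4.03 with LPS+Dex in RNA. The groups were separate at low levels. It changed by 3.33 ± 0.23 (adjusted p = 2.44e-08) and -1.67 ± 0.21 (adjusted p = 2.9e-05). IFI44L footprints read 0.688, 0.564, 0.901, 8.49 and 0.951 CPM with vehicle, 3.35, 3.03, 3.17, 14.3 and 2.82 with LPS and 0.319, 1.39, 1.65, 7.46 and 0.785 with LPS+Dex, and library 4 was above all others in each treatment. The LPS change was 1.29 ± 0.88 with all libraries (adjusted p = 0.24, with the block 1.63 ± 0.28, adjusted p = 7.64e-05) and 1.97 ± 0.31 in the reduced set (adjusted p = 6.56e-06). IFI35 (ENSG00000068079, chromosome 17, 43006784 to 43014456) read 53, 47.7, 38.5 and 43.4 CPM with vehicle, 152, 170, 126 and 135 with LPS and 83.1, 97.2, 96.5 and 134 with LPS+Dex in RNA. LPS was above vehicle in every library, and the LPS+Dex library numbered 4 reached the LPS range. It changed by 1.68 ± 0.15 (adjusted p = 2.6e-07) and -0.51 ± 0.14 (adjusted p = 0.0149). IFI35 footprints read 45.3, 42.1, 45.5, 89.1 and 45.2 CPM with vehicle, 95.8, 88.3, 80, 114 and 78.8 with LPS and 49.5, 51.6, 59.7, 96.9 and 51.4 with LPS+Dex, and vehicle library 4 lay within the LPS range. They rose by 0.78 ± 0.23 with all libraries (adjusted p = 0.00972). EPSTI1 rose by 3.16 ± 0.12 and changed by -1.47 ± 0.11 with dexamethasone, the fourth largest RNA fall of the 40.

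After dexamethasone most of the genes were still above vehicle. This comparison shares its LPS+Dex and vehicle libraries with the other contrasts, so its values stand beside theirs and add no independent support. In RNA 36 of the 40 were higher with LPS+Dex than with vehicle and 1, DDX60L, was lower, where 60.2% of all genes passed (29.2% higher). The median log2 fold change was 1.48, against 2.29 for LPS alone. At least 2-fold higher were 25, and the share of all genes at that limit was not taken. IFITM2, SAMHD1 and PARP10 did not pass. HERC5 was still 5.47 ± 0.15 above vehicle, IFI44 4.01 ± 0.11 and MX1 3.99 ± 0.16, while IFI16 was at 0.28 ± 0.09 (adjusted p = 0.0162) and SHISA5 at 0.30 ± 0.08 (adjusted p = 0.00353). DDX60L lay at -0.40 ± 0.07 (adjusted p = 0.000329). In footprints 21 were higher and 1, IFITM2, lower with all libraries (background 46.4%, 24.4% higher and 22% lower). With the block 30 were higher and 1 lower (background 61.1%, 31.3% higher and 29.8% lower). Without the libraries numbered 4, 32 were higher and 2, IFITM2 (-0.45 ± 0.12) and PARP10 (-0.32 ± 0.10), lower (background 62.4%, 30.8% higher and 31.6% lower).

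Footprints per mRNA were compared as the footprint log2 fold change minus the RNA log2 fold change, tested as 1 interaction over all 27 libraries. With LPS this difference was negative for 39 of the 40 genes (median -0.71, against 0.02 over all genes), and 3 of them passed: PARP12, PARP14 and PNPT1, all lower. Of the 13679 genes tested 1.51% passed, 0.987% upward and 0.526% downward. At an unadjusted p under 0.05, 1 member was higher and 21 were lower, against 6.25% and 5.11% of all genes. DESeq2 called 10 members and 3.28% of all genes, of which 13312 had an adjusted p. It gave none for at least MX1, RSAD2, IFI6, IFI44 and IFI44L, so these could not be called. The reduced set narrowed the shift: 35 of 40 were negative, the median was -0.34 (0.03 over all genes), and 11 were lower and 1 higher (background 4.94%, 2.1% lower). With the replicate block 13 were lower and 0 higher (background 6.58%, 3.6% higher and 2.98% lower).

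PARP12 changed by -0.85 ± 0.14 with all libraries (adjusted p = 0.00127) and -0.74 ± 0.13 in the reduced set (adjusted p = 0.000533). Its RNA rose by 1.08 ± 0.08, while its footprints were at 35.4 ± 2.81 CPM with vehicle and 43.2 ± 4.71 with LPS in the reduced set. PARP14 changed by -1.08 ± 0.28 (adjusted p = 0.0455) and -0.70 ± 0.17 (adjusted p = 0.0136). With all libraries its call was lost without any 1 of 23 of the 27 libraries (adjusted p from 0.0271 to 0.106) and without the low-count filter (adjusted p = 0.0553). PNPT1 changed by -0.63 ± 0.15 (adjusted p = 0.0298) and -0.48 ± 0.11 (adjusted p = 0.00882), and its call was lost without any 1 of 7 libraries (RNA vehicle 3 and 4, RNA LPS 1, 2 and 4, footprint vehicle 2, footprint LPS 5), with adjusted p between 0.0207 and 0.0754 over all 27 fits. The count of 3 fell to 1 without RNA vehicle 4, RNA LPS 1, RNA LPS 2, footprint vehicle 2 or footprint LPS 5, and was 5 without footprint LPS+Dex 4.

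The ADP-ribosylation genes held 4 of the 11 lower calls of the reduced set, PARP9 (-0.56), PARP10 (-1.03), PARP12 and PARP14. PARP10 had the most negative of the 11 values, with -1.03 ± 0.19 (adjusted p = 0.000817), and -0.95 ± 0.27 with all libraries (adjusted p = 0.075, with the block -0.98 ± 0.17, adjusted p = 0.000651). The other 7 were HERC6 (-0.48), MX2 (-0.75), PNPT1, PML (-0.42), XAF1 (-0.81), APOL1 (-0.66) and IFI35 (-0.67). Over all 40 genes the most negative value of the reduced set was -1.30, in a member that did not pass. With the replicate block the ADP-ribosylation genes held 3 of the 13 lower calls. In that fit the genes of mitochondria, apoptosis and apolipoproteins L held 4. DDX60 went the other way. Its footprints in the reduced set went from 17.2 ± 1.31 to 114 ± 5.69 CPM (mean ± SD, n = 4), while its RNA went from 52.9 ± 4.25 to 169 ± 7.09. The difference was 1.12 ± 0.13 in the reduced set (adjusted p = 3.06e-06), but 0.63 ± 0.29 with all libraries (adjusted p = 0.393) and 0.70 ± 0.28 with the block (adjusted p = 0.147). RSAD2 changed sign, with -1.83 ± 1.01 with all libraries and 0.30 ± 0.26 in the reduced set, neither of which passed.

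**Figure D4:**
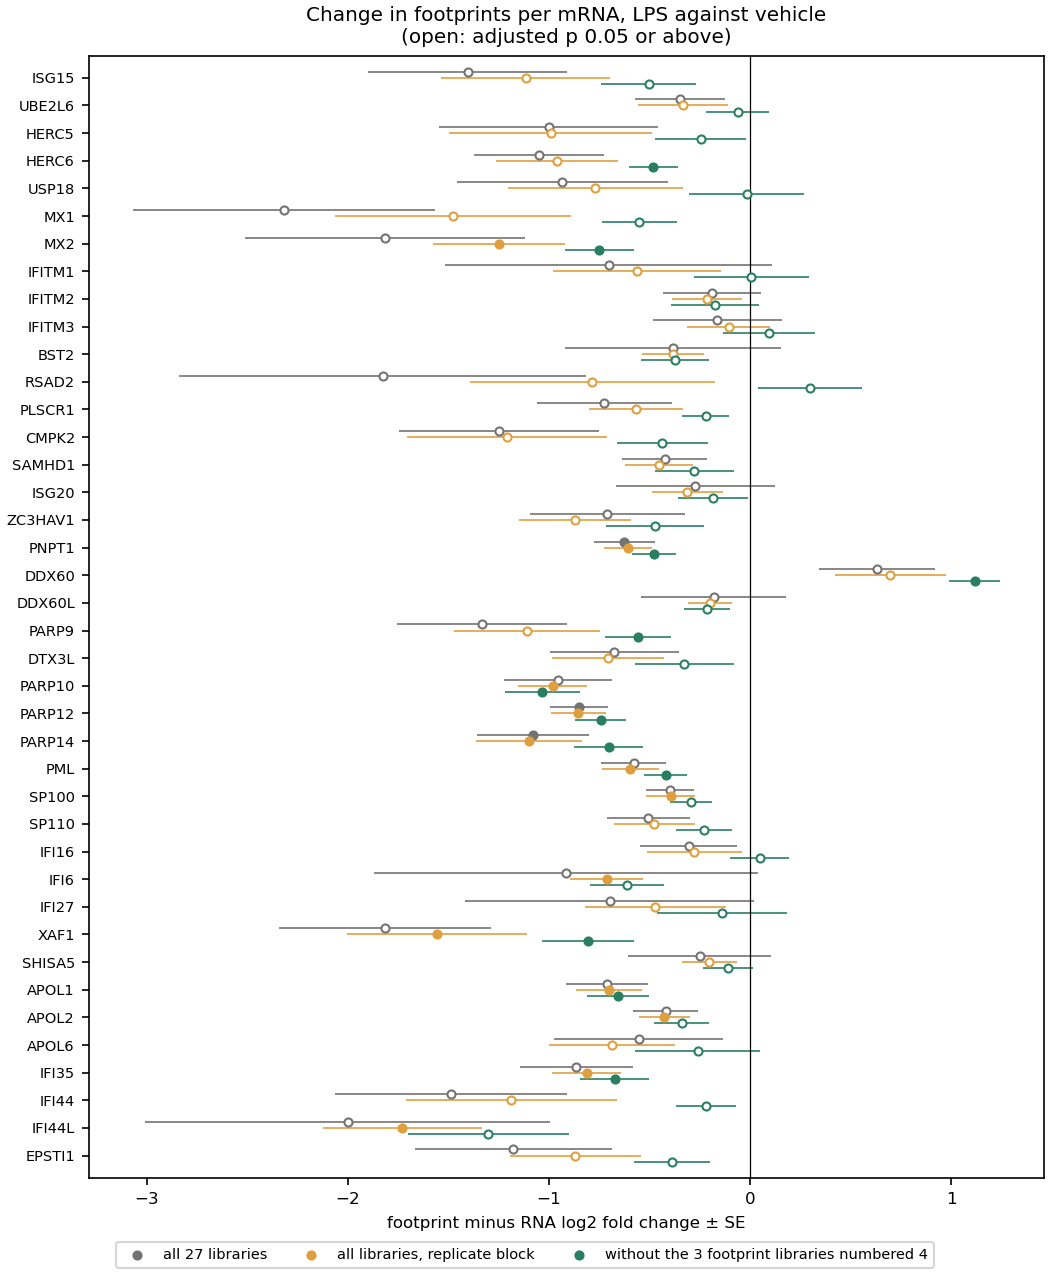
Change in footprints per mRNA for LPS against vehicle (footprint minus RNA log2 fold change ± SE) for the 40 genes, from all 27 libraries (grey), with the replicate block (orange) and without the 3 footprint libraries numbered 4 (green). Filled points passed an adjusted p under 0.05. Most points lie below 0, PARP12, PARP14 and PNPT1 are filled in all 3 fits, and DDX60 lies above 0.

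With dexamethasone footprints per mRNA changed for none of the 40 in edgeR's test over all libraries, where 0.0366% of all genes passed (0.0292% higher, 0.00731% lower). None had an unadjusted p under 0.05, and DESeq2 called 0 as well, with an adjusted p for 12783 of the 13679 genes. The median difference was 0.13. DDX60L was the 1 member that passed in the reduced set, at 0.70 ± 0.12 (adjusted p = 0.00285, background 0.374%), and with the block, at 0.63 ± 0.11 (adjusted p = 0.00557, background 0.519%). Its RNA log2 fold change was -1.01 ± 0.07 and that of its footprints -0.30 ± 0.08 in the reduced set. In all libraries the same difference was 0.58 ± 0.36 (adjusted p = 0.896). Between LPS+Dex and vehicle 2 genes were lower per mRNA with all libraries, PARP12 (-0.74 ± 0.14) and HERC6 (adjusted p = 0.0467), where 1.54% of all genes passed, 0.424% lower. That count was 1 without any 1 of 20 of the 27 libraries and 4 without footprint vehicle library 4. For this contrast the reduced set had 10 lower and 2 higher (background 7.6%, 2.46% lower), and the blocked fit 13 lower and 1 higher (background 10.4%, 4.09% lower).

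The signalling genes around these effectors were read from a separate list of 27 genes that are no members, of which 26 were tested in each measure. In RNA 21 rose and 2 fell with LPS, where 28.6% of all genes rose and 33.6% fell, and 1 rose and 13 fell with dexamethasone, where 15.5% rose and 15.4% fell. In footprints 21 rose and 1 fell with LPS (25.4% and 27.2% of all genes), and 1 rose and 5 fell with dexamethasone (9.08% and 7.99%). The dexamethasone counts were 2 and 9 with the block (16.1% and 14.8% of all genes) and 2 and 11 in the reduced set (16.2% and 15.3%). IFNB1, which encodes interferon beta, read 0, 0, 0 and 0.0689 CPM with vehicle, 2.39, 3.9, 4.03 and 6.04 with LPS and 2.22, 2.53, 1.46 and 2.29 with LPS+Dex in RNA. Its footprints read 0, 0, 0, 0.278 and 0.0634 CPM with vehicle, 8.27, 11.3, 8.5, 29.6 and 13.9 with LPS and 4.62, 6.67, 3.31, 10.4 and 5.44 with LPS+Dex, with LPS library 4 the highest. Vehicle was at or near 0 throughout, so no fold change is given for LPS. IFNL1, an interferon lambda gene, read 1.15, 0.624, 0.779 and 0.776 CPM with LPS and 0.302, 0.382, 0.325 and 0.654 with LPS+Dex in RNA, and at most 0.0345 with vehicle. With dexamethasone IFNB1 changed by -0.94 ± 0.28 in RNA (adjusted p = 0.0202), while the footprint change of -1.23 ± 0.41 did not pass with all libraries (adjusted p = 0.0549). IFNB1 footprints fell with the block (-1.16 ± 0.16, adjusted p = 2.42e-05) and in the reduced set (-1.03 ± 0.20, adjusted p = 0.000204), where LPS read 8.27 to 13.9 CPM and LPS+Dex 3.31 to 6.67. Of the receptor subunits, IFNAR1 rose by 0.31 ± 0.10 (adjusted p = 0.0179) and IFNAR2 by 0.42 ± 0.13 (adjusted p = 0.0115) in RNA.

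STAT2 and IRF9, which act at the ISRE, rose with LPS and fell with dexamethasone in RNA. They rose by 1.96 ± 0.10 and 2.31 ± 0.09 with LPS and changed by -0.92 ± 0.10 and -0.47 ± 0.09 with dexamethasone. STAT2 footprints rose by 0.67 ± 0.24 with all libraries (adjusted p = 0.0274) and 0.81 ± 0.09 in the reduced set. STAT2 footprints per mRNA were lower with LPS (-1.26 ± 0.27, adjusted p = 0.0144). UBA7, the enzyme that activates ISG15 before UBE2L6 and HERC5 act, fell in RNA where the ISG15 system rose. Its RNA read 148, 171, 124 and 143 CPM with vehicle, 69, 70.2, 52.9 and 60.6 with LPS and 51.4, 56.2, 59.9 and 70 with LPS+Dex. The LPS libraries lay below every vehicle library, a change of -1.21 ± 0.12 (adjusted p = 1.03e-06), and dexamethasone did not shift it past the test (-0.09 ± 0.12, adjusted p = 0.605). UBA7 footprints read 35.4, 26.2, 31.8, 24.1 and 31.1 CPM with vehicle, 28.3, 30.3, 23.6, 28.4 and 30.5 with LPS and 26.5, 30.4, 28.3, 25.1 and 28.4 with LPS+Dex and overlapped between groups (-0.08 ± 0.11, adjusted p = 0.563). Footprints per UBA7 mRNA rose with LPS, by 1.17 ± 0.17 with all libraries (adjusted p = 0.000413) and 1.12 ± 0.17 in the reduced set (adjusted p = 7.86e-05).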

How the data were processed

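Raw counts per gene, as the authors deposited them, were used from 2 tables of 20453 Ensembl genes, with 12 RNA-seq and 15 ribosome footprint libraries. The tools listed for both assays, per the submitters' processing notes, are featureCounts 2.0.1, STAR 2.7.10a and DESeq2 1.26.0, with Bowtie2 2.4.5 for the footprints alone, and the genome is GRCh38 (hg38). The sources used here do not give their roles or settings, the annotation release, the counted feature or the strand setting, so whether footprints outside coding sequence were counted is not known.

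Symbols came from a table of gene names. The values of 1 signalling gene are not reported here. The members, role groups, marker and pathway lists, and tests were chosen with earlier results of these data known. Columns were matched to samples by name, and no column was left out. Each assay was fitted in R 4.3.3 with edgeR 4.0.16 (TMM scaling, filterByExpr with a minimum count of 10 and minimum total of 15, quasi-likelihood F test, treatment as the only term), over 12 RNA libraries (13327 genes) or 15 footprint libraries (12197 genes). Footprints per mRNA were the interaction of assay and treatment in 1 fit over 27 libraries (13679 genes). P-values were adjusted by Benjamini-Hochberg over all genes tested, genes were called at an adjusted p under 0.05 whatever their fold, and the SE is the absolute log2 fold change divided by the square root of F. CPM use TMM-scaled library sizes of each assay. The fits were tested on simulated counts, which held no deviating library and so do not cover the footprint libraries numbered 4.

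All libraries of 1 group differed beyond counting noise (lowest chi-square per degree of freedom 3.34). Same-numbered footprint libraries deviated together in 15 of 15 pairs (correlation over 0.1, median 0.271), against 34 of 60 differently numbered pairs (median 0.169). Without the libraries numbered 4 this held for 3 of 12 (median 0.045) and 2 of 36 pairs (median -0.015). A pairing of footprints by number thus rests largely on the libraries numbered 4. The blocked fit is given as an alternative for the counts and for some of the members whose call it changes. Among the members with values per library it added a call for 15 footprint changes and 7 changes in footprints per mRNA. Not all of these are listed, so a call given without the block can differ with it. In RNA 7 of 12 same-numbered pairs passed (median 0.207), against 13 of 36 others (median -0.042). Whether the numbers mark pairs was not settled in either assay. Values per library are given for the member of each role group with the largest RNA rise and, in groups of 4 or more, the smallest, and for each member that fell with LPS, that was called in footprints per mRNA over all libraries, or that was called in 1 assay alone with LPS. Alternatives were DESeq2 1.42.0 and its size factors, no low-count filter, the replicate block, each library left out in turn, the footprint libraries numbered 4 left out, and the libraries numbered 4 of both assays left out.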

Additional observations from a re-analysis of the deposited data

Results flagged for a closer look

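In 39 of 126 combinations of named member, assay and treatment the highest or lowest library lay apart from its nearest neighbour by more than Dixon's 95% limit for the group's range. Chance gives this in about 1 in 20 independent groups, a rate that these counts cannot be set against. The combinations share libraries, and some members were named for a call in 1 assay alone with LPS. Only combinations of named members were counted. Footprints account for 34 of 63 such combinations, every one of them through the library numbered 4 (14 with vehicle, 10 with LPS, 10 with LPS+Dex), and RNA for 5 of 63.

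In vehicle footprints library 4 was the far highest for HERC5 (5.57 CPM), MX1 (172), BST2 (264), RSAD2 (47.6), CMPK2 (10.4), DDX60L (275), PARP14 (182), IFI6 (2000), IFI27 (4.25), XAF1 (20), SHISA5 (40.6), IFI35 (89.1), IFI44 (25.1) and IFI44L (8.49). In LPS footprints it was the far highest for BST2 (333 CPM), RSAD2 (95.1), DDX60L (397), PARP10 (48), IFI6 (3180), SHISA5 (38.4) and IFI44L (14.3). In the same LPS library HERC5 (38.3 CPM), CMPK2 (21.9) and PARP14 (326) were far the lowest. With LPS+Dex library 4 was the far highest for BST2 (390 CPM), RSAD2 (59.5), PNPT1 (158), DDX60L (253), PARP10 (60.6), IFI6 (3380), IFI27 (5.59), SHISA5 (48.3), IFI35 (96.9) and IFI44L (7.46).

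In RNA the 5 were HERC5 in vehicle library 4 (2.93 CPM, highest), IFITM2 in LPS library 2 (12.3, highest), SP100 in LPS library 4 (257, lowest), IFI27 in LPS library 2 (4.11, highest) and IFI44 in LPS+Dex library 4 (135, highest).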

How the results depend on the processing

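The choice that moved most values was whether the 3 footprint libraries numbered 4 were used. The footprint fall with dexamethasone was called for 10 members with all libraries (17.1% of all genes called in either direction), 29 with the replicate block (30.9%) and 35 without those 3 libraries (31.5%), and the footprint difference of LPS+Dex from vehicle for 22 (46.4%) and 34 (62.4%) with and without them. For footprints per mRNA, 3 members were called with LPS (1.51% of all genes), against 10 by DESeq2 (3.28%), 13 with the block (6.58%), 12 without the 3 footprint libraries (4.94%) and 15 without the libraries numbered 4 of both assays (3.95%). With dexamethasone 0 (0.0366%) became 1 under the block (0.519%) and both of those reductions (0.374% and 0.234%). For LPS+Dex against vehicle 2 (1.54%) became 1 with no low-count filter (0.919%), 8 by DESeq2 (3.55%), 14 with the block (10.4%), 12 without the 3 footprint libraries (7.6%) and 10 without those of both assays (4.12%). RSAD2 footprints per mRNA with LPS reversed to 0.30 without the 3 footprint libraries and to 0.11 without those of both assays. Leaving out 1 library at a time, the calls ran from 39 to 40, 30 to 35 and 36 to 37 in RNA (LPS against vehicle, LPS+Dex against LPS, LPS+Dex against vehicle), 30 to 35, 6 to 23 and 19 to 32 in footprints, and 1 to 5, 0 to 0 and 1 to 4 in footprints per mRNA. Directions reversed in such fits for footprints with LPS of BST2 (-0.14 to 0.72), IFI6 (-0.13 to 2.05) and SHISA5 (-0.035 to 0.48), for footprints with dexamethasone of BST2 (-0.71 to 0.40), IFI6 (-1.42 to 0.85) and SHISA5 (-0.39 to 0.20), and for footprints per mRNA with LPS of BST2 (-0.79 to 0.034), DDX60L (-0.52 to 0.13), IFI27 (-0.93 to 0.10), IFI6 (-1.83 to 0.30), RSAD2 (-2.13 to 0.45) and SHISA5 (-0.42 to 0.063). The cause of these changes was not tested. In RNA the block changed none of the 42 log2 fold changes of named members (LPS against vehicle, LPS+Dex against LPS) in direction or call. DESeq2 gave no adjusted p for 15 values of named members. These were footprint or footprints-per-mRNA values of MX1, RSAD2, IFI6, IFI44 and IFI44L. Low counts limit IFI27, IFI44L, IFITM1 and IFNL1 most.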
